A study of Mus musculus with 12 samples.

Results

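The guanylate-binding proteins and the immunity-related GTPases form a pair of families of GTPases through which interferons arm a macrophage against microbes inside the cell. They were followed here with 9 genes, Gbp2, Gbp3, Gbp5, Gbp6 and Gbp9 of the first family and Irgm1, Irgm2, Igtp and Iigp1 of the second. A gene was taken when the array annotation gave it that name, and it was read from the probe with the highest mean log2 signal over the 12 arrays. The rule used names and mean brightness, and all 9 were among the 20491 genes tested. The cells were bone marrow-derived macrophages of female C57BL/6 mice, 6 to 8 weeks old, grown for 7 days in medium conditioned by L929 cells, a source of macrophage growth factor. Recovered cells were exposed to lipopolysaccharide (LPS, a component of the bacterial outer membrane) for 8 h, rested for 88 h by the sample descriptions (2 to 4 days by the treatment protocol) and were exposed again for 4 h. Tolerant cells differed from them in a rest of 16 h, acute cells were exposed once, for 4 h, and untreated cells received no LPS. Each group had 3 single-colour Agilent arrays, 1 from each of 3 independent experiments. Most arrays were thus of LPS-treated cells, so the choice by mean brightness favoured probes that are bright under LPS. The labels do not say whether an experiment used its own animals, and the LPS dose is not given in the sources used here. A group rested after the first LPS without a second exposure was not analysed here. RNA left from the first exposure and RNA made after the second therefore cannot be told apart.

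Interferons bind receptors that switch on JAK kinases and STAT factors, which with IRF factors act at the interferon-stimulated response element (ISRE) and the gamma-activated site (GAS) of their target genes. LPS reaches the same genes through Toll-like receptor 4, which makes macrophages secrete interferon beta. Guanylate-binding proteins, relatives of dynamin, gather on bacteria and on the vacuoles that hold microbes and help caspase-11 and other sensors to detect what is inside. Of the immunity-related GTPases, Iigp1 is an effector that loads onto the vacuole, while Irgm1, Irgm2 and Igtp are regulators that stay on the cell's own membranes and keep the effectors off them.

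By accession, 8 of the 9 probes belonged to the gene they were named for in the RefSeq annotation. The exception was the probe named Gbp6, whose transcript accession is that of Gbp7 in RefSeq (GRCm38.p6), and its values are given below as those of the Gbp6 (Gbp7) probe. Gbp7 is known in mice for helping to assemble the NADPH oxidase on phagosomes. In the mm9 positions of the array annotation, the probes of 4 guanylate-binding proteins lay close together on chromosome 3, those of Gbp5 at chr3:142184779-142184838, Gbp6 (Gbp7) at chr3:142209379-142209438, Gbp3 at chr3:142236032-142236091 and Gbp2 at chr3:142300719-142300778. The probe of Gbp9 was at chr5:105508946-105509005. On chromosome 11 lay those of Irgm1 at chr11:48679069-48679128, Igtp at chr11:58020927-58020986 and Irgm2 at chr11:58036093-58036152. Which exon a probe lies in was not analysed here.

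Promoter sequences are shown because the members moved together across the groups. RefSeq promoter entries (GRCm38.p6, 250 bases before to 50 bases after a transcription start) were matched for 7 of the 9 members, all but Gbp9 and Iigp1. The ISRE core, which is GAAA, any 2 bases and GAAA again, was searched on both strands. It was found in all 7, in 1 promoter each, against 3.44% of 32851 promoters in the table. The GAS consensus TTCNNNGAA, which reads the same on both strands, was found in 4 of 7, those of Gbp5, Gbp7, Irgm2 and Igtp, against 8.3% of all promoters. A kappaB consensus was found in the promoter of Gbp5 and in no other of the 7, against 4.51% of all promoters. The sequences below are shown for 2 guanylate-binding proteins and 3 regulators, 5′ to 3′ on the gene's strand and ending 50 bases after the start, with the matched letters in capitals (ISRE core, GAS and, in Gbp5, the kappaB match).
Gbp2 promoter, chr3:142620553-142620712, plus strand: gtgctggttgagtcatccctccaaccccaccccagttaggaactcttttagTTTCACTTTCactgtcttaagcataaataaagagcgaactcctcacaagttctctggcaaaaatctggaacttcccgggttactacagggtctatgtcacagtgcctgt
Gbp5 promoter, chr3:142496763-142496983, plus strand: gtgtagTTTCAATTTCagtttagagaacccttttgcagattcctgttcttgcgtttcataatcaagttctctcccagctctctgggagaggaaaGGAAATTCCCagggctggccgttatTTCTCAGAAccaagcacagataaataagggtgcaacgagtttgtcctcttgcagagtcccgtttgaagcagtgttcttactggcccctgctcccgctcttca
Irgm1 promoter, chr11:48871371-48871530, minus strand: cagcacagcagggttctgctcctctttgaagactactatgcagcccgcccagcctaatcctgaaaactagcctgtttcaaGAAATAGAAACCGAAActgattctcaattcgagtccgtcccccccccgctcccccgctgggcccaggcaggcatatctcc
Irgm2 promoter, chr11:58214867-58215026, plus strand: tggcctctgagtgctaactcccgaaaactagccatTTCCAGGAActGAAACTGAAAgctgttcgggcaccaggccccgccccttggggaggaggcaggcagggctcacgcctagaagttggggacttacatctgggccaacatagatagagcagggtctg
Igtp promoter, chr11:58199446-58199605, plus strand: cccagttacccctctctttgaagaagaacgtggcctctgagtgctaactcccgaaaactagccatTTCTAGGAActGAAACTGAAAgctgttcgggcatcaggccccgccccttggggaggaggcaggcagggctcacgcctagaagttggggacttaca
The ISRE core began 59 bases before the start in Gbp2, 165 in Gbp5, 64 in Irgm2 and 34 in Igtp, and the Irgm1 promoter held a pair of overlapping matches that began 30 and 24 bases before the start. Irgm2 and Igtp, whose probes lie close together, each had a GAS match just upstream of the ISRE core. In Gbp5 the kappaB and GAS matches lay 77 and 52 bases before the start, between the ISRE core and the start, and a further GAS match lay 245 bases before the start, outside the printed window. The promoter of Gbp3 that is not printed had a pair of overlapping ISRE cores at 45 and 39 bases before the start, and a second promoter of that gene had none of the 3 motifs. Gbp7 had an ISRE core at 53 bases and GAS matches at 106 and 87 bases before the start. A match describes the letters of these windows and is not evidence of binding, and the search had no test.

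All levels below are log2 normalised intensities, the log2 of the scanner's background-subtracted signal with the 75th percentile of each array set to the same value. Probes differ in brightness for the same amount of RNA, so levels were compared between groups for 1 probe and not between genes. Between 47.8% and 55.0% of spots per array were well above background, and every member was well above background on all 12 arrays. No spot used here was saturated. Among the 3 slides, scanned over 2 days, the first held no recovered array.

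Gbp2, which coats bacteria and the vacuole of the parasite Toxoplasma, had levels of 16.39, 16.07 and 16.55 in recovered cells, 14.83, 14.34 and 14.61 in tolerant cells and 16.65, 16.30 and 16.46 in acute cells, against 9.84, 10.03 and 9.68 in untreated cells. The tolerant arrays lay below every recovered and acute array and above every untreated one. Gbp5, which in mice promotes assembly of the NLRP3 inflammasome, had 16.29, 16.10 and 16.20 in recovered cells, 14.31, 14.04 and 14.10 in tolerant cells and 15.62, 15.83 and 16.00 in acute cells, against 6.43, 6.72 and 7.47 in untreated cells. All 3 recovered arrays of Gbp5 were above all 3 acute arrays, by a margin smaller than the spread within the acute group.

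The Gbp6 (Gbp7) probe had 12.79, 12.66 and 13.34 in recovered cells, 11.47, 10.89 and 11.55 in tolerant cells and 13.20, 12.50 and 13.25 in acute cells, against 6.78, 6.98 and 6.97 in untreated cells. The second experiment gave the lowest value in each of the 3 LPS groups. Gbp3 ranged from 15.26 to 15.65 in recovered cells, 13.64 to 14.09 in tolerant cells and 15.30 to 15.86 in acute cells, against 9.01 to 9.52 in untreated cells. Gbp9, which is recruited to Toxoplasma vacuoles, ranged from 11.60 to 12.05 in recovered cells, 10.15 to 10.79 in tolerant cells and 11.99 to 12.33 in acute cells, against 7.31 to 7.78 in untreated cells. For both genes recovered and acute arrays overlapped, while tolerant arrays overlapped with no other group.

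Irgm1, a regulator needed in mice for resistance to mycobacteria, had 16.22, 16.11 and 16.02 in recovered cells, 14.63, 14.36 and 14.37 in tolerant cells and 16.44, 16.24 and 16.26 in acute cells, against 12.45, 12.57 and 12.34 in untreated cells. Its recovered arrays were all just below its acute arrays. Irgm2 ranged from 15.16 to 15.32 in recovered cells, 13.46 to 13.84 in tolerant cells and 15.05 to 15.39 in acute cells, against 11.24 to 11.83 in untreated cells. Igtp (also called Irgm3), measured by 1 probe printed in 10 spots that were averaged, ranged from 16.23 to 16.54 in recovered cells, 14.39 to 14.79 in tolerant cells and 16.24 to 16.61 in acute cells, against 11.77 to 12.32 in untreated cells. The 3 regulators thus had the same order of groups, with recovered and acute cells at the top, tolerant cells between and untreated cells lowest.

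Iigp1, the effector, had 14.49, 13.66 and 13.52 in recovered cells, 11.47, 10.78 and 10.74 in tolerant cells and 13.24, 12.86 and 13.06 in acute cells, against 8.28, 8.91 and 9.10 in untreated cells. Every recovered array was above every acute array, and the first experiment gave the highest value in all 3 LPS groups and the lowest in untreated cells. The 9 members rose and fell together. Over the 12 arrays the 36 pairs of members had Pearson correlations from 0.928 to 0.999 with a median of 0.983, a description of points that fall into groups, given without a p-value.

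**Figure D1:**
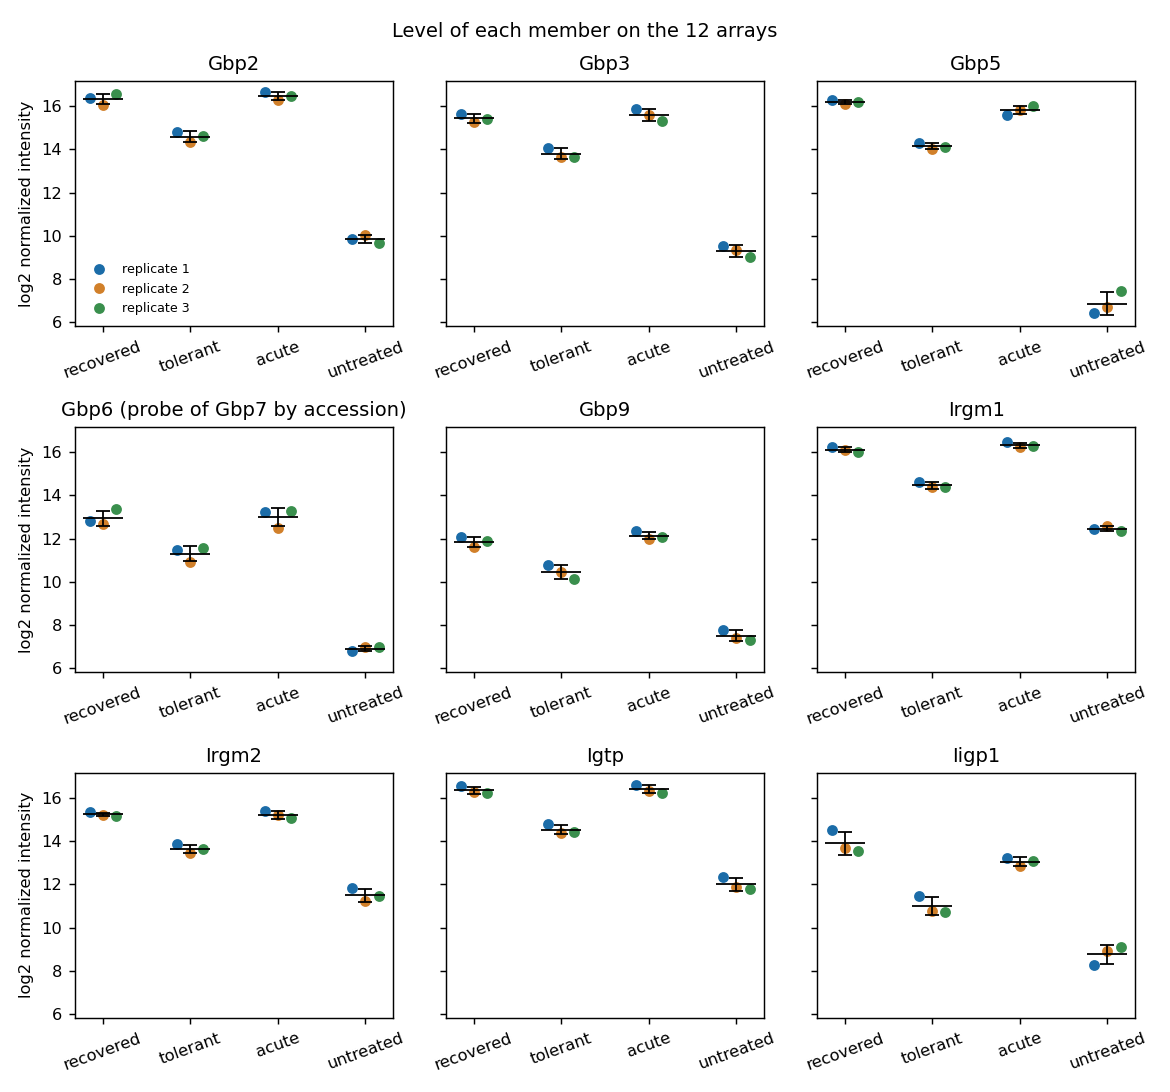
Log2 normalised intensity (vertical axis) of each of the 9 members on each array of the recovered, tolerant, acute and untreated groups; points are single arrays coloured by experiment, bars the mean and SD of 3 arrays. In all 9 panels the tolerant arrays sit between the untreated arrays and the other LPS groups without overlap.

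Against untreated cells, all 9 members rose in all 3 LPS groups. In recovered cells the log2 differences ran from 3.66 ± 0.14 for Irgm1 to 9.32 ± 0.23 for Gbp5 (SE, n = 3 arrays a group), folds of 12.6 and 640, with a median over members of 5.13 beside 0.06 over all genes. In the linear model of all 12 arrays (limma, Benjamini-Hochberg over all genes, called under an adjusted p of 0.05), 9 of 9 were called higher with adjusted p of at most 2.73e-07, against 18.5% of all genes. In tolerant cells the differences ran from 2.00 ± 0.14 for Irgm1 to 7.28 ± 0.23 for Gbp5, with a median of 2.97 beside -0.02 over all genes. Again 9 of 9 were called (limma, adjusted p of at most 0.00038), against 11.3% of all genes called higher, or 18.8% with the replicate number as a block. In acute cells they ran from 3.71 ± 0.18 for Irgm2 to 8.94 ± 0.23 for Gbp5, with a median of 4.64 beside 0.02 over all genes, and 9 of 9 were called (limma, adjusted p of at most 1.14e-06), against 14.3% of all genes called higher. The LPS and untreated arrays did not overlap for 9 of 9 members, against 25.2% of all genes that lay higher without overlap in recovered, 17.4% in tolerant and 18.2% in acute cells. The LPS groups share their untreated arrays, so these counts are not independent of each other.

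By size of the log2 difference from untreated cells among the 20491 genes, Gbp5 ranked 8 in recovered, 12 in tolerant and 9 in acute cells. These ranks hold for the probe used. The 5 guanylate-binding proteins had a median log2 difference of 6.29 in acute against untreated cells and the 4 immunity-related GTPases one of 4.07. These medians hold for the probes used and are no order of the families, since the second Gbp5 probe had 2.41 and, among other family genes, Gbp10 had 2.66 and Tgtp2 6.34.

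Tolerant cells were set against acute cells to compare the levels after a second exposure with those after a first. All 9 members fell, by a similar amount. The log2 difference ran from -2.06 ± 0.30 for Iigp1 to -1.57 ± 0.18 for Irgm2 (SE, n = 3 a group), with a median of -1.79 beside -0.05 over all genes. On the linear scale the tolerant level was 24.0% of the acute level for Iigp1, 27.3% for Gbp2, 27.5% for Igtp, 27.6% for Irgm1, 28.9% for Gbp3, 31.1% for Gbp6 (Gbp7), 31.5% for Gbp9, 31.6% for Gbp5 and 33.7% for Irgm2. All 9 were called lower (limma, adjusted p of 1.84e-05 to 0.00103), against 10.6% of all genes, or 22.9% with the replicate block. Within single experiments the differences ran from -2.32 to -1.30, below 0 in 3 of 3 experiments for all 9 members. The share of all genes below 0 in this way was not counted.

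Tolerant arrays lay below acute arrays without overlap for 9 of 9 members, against 18.3% of all genes that lay lower in this way. Each slide held the tolerant and acute arrays of the same experiment, so the slides repeat the differences within experiments. The median over members was -1.77 on the first slide, -1.88 on the second and -1.85 on the third. The tolerant cells still stood above untreated cells, and the share of the acute log2 rise seen in them is given here without a test. It was 81.4% for Gbp5, 72.3% for Gbp6 (Gbp7), 71.6% for Gbp2, 71.5% for Gbp3 and 64.0% for Gbp9. It was 57.7% for Igtp and for Irgm2, 52.0% for Iigp1 and 51.8% for Irgm1. Since the fall from acute cells was similar for all 9, a share mostly follows the size of the acute rise. The shares hold for the probes used and are no order of the families. On the second Gbp5 probe the rise was 0.79 in tolerant and 2.41 in acute cells, a smaller share than on the first. The median log2 difference between tolerant and acute cells was -1.68 for the guanylate-binding proteins and -1.86 for the immunity-related GTPases. In array data of whole cultures, fewer cells that express a gene and less of its RNA per cell cannot be told apart.

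The comparison of recovered with tolerant cells asks whether the levels after the second exposure differ with a longer rest. All 9 members rose. The log2 difference was 1.74 ± 0.18 for Gbp2, 1.64 ± 0.20 for Gbp3, 2.04 ± 0.23 for Gbp5, 1.63 ± 0.26 for Gbp6 (Gbp7) and 1.38 ± 0.20 for Gbp9. It was 1.66 ± 0.14 for Irgm1, 1.58 ± 0.18 for Irgm2, 1.81 ± 0.19 for Igtp and 2.90 ± 0.30 for Iigp1, the largest of the 9 and a fold of 7.45. The median was 1.66 beside 0.09 over all genes. All 9 were called higher (limma, adjusted p of 5.5e-05 to 0.00164), against 11% of all genes, or 25.2% with the replicate block. The groups did not overlap for any member, against 24.8% of all genes that lay higher without overlap. Within slides, the median difference of recovered against tolerant cells was 1.84 on the second slide and 1.79 on the third. The second slide set recovered arrays 1 and 2 against tolerant array 2, so its value crosses experiments. The third repeats the differences of the third experiment. The tolerant arrays serve in this comparison and in the one with acute cells.

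Recovered cells were then set against acute cells, which asks whether levels after the longer rest and second exposure reach those after a first exposure. The median log2 difference of the members was -0.05, beside 0.04 over all genes. No member was called (0 of 9, limma, adjusted p of 0.225 to 0.983), against 2.04% of all genes, made up of 1.46% higher and 0.581% lower. With the replicate block no member was called either, against 5.99% of all genes called higher and 4.75% called lower. At an unadjusted p under 0.05 the count was 1, Iigp1. The share of all genes under that rule was not counted, so this does not set Iigp1 apart. The 95% intervals of the log2 difference were -0.54 to 0.27 for Gbp2, -0.60 to 0.31 for Gbp3, -0.13 to 0.90 for Gbp5, -0.62 to 0.51 for Gbp6 (Gbp7) and -0.73 to 0.16 for Gbp9. They were -0.50 to 0.10 for Irgm1, -0.38 to 0.41 for Irgm2, -0.47 to 0.36 for Igtp and 0.17 to 1.50 for Iigp1. A miss of the threshold does not show that the groups are alike, and the intervals give the differences that these arrays leave possible.

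Iigp1 had the largest difference of the 9 between recovered and acute cells, 0.84 ± 0.30 on the log2 scale with a limma adjusted p of 0.225 (n = 3 a group). Its difference was 1.26, 0.80 and 0.46 in the 3 experiments, above 0 in 3 of 3. Within the second slide it was 1.21, from recovered arrays 1 and 2 against acute array 2. That value reuses arrays of the experiments and is no further support. The value within the third slide, 0.46, is that of the third experiment again. Gbp5 was also above 0 in 3 of 3 experiments, with 0.38 ± 0.23. Irgm1, Igtp and Gbp9 were below 0 in 3 of 3 experiments, with means of -0.20, -0.05 and -0.29. The values of Igtp were -0.07, -0.08 and -0.01. The share of all genes with 1 sign in 3 of 3 experiments was not counted, so these signs set no member apart. The recovered and acute arrays did not overlap for Gbp5 and Iigp1, both higher, against 12.2% of all genes, and for Irgm1, lower, against 7.5% of all genes.

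**Figure D2:**
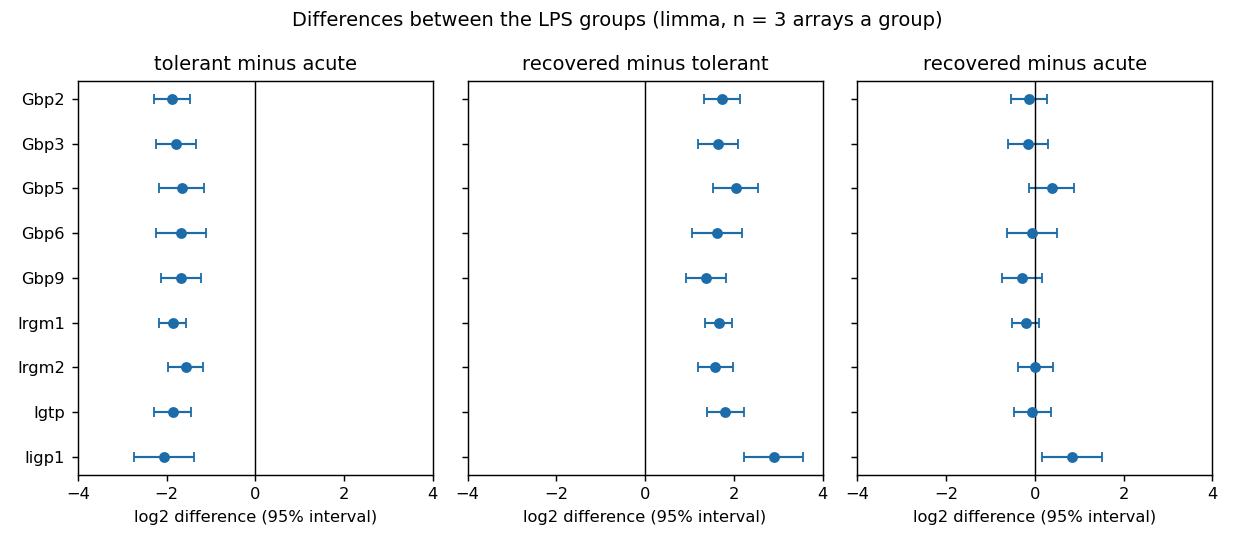
Log2 difference (horizontal axis) of each member between tolerant and acute, recovered and tolerant, and recovered and acute cells; points are limma estimates from 3 arrays a group and bars 95% intervals. The intervals of the first panel all lie below 0, those of the second all above 0, and in the third all but that of Iigp1 include 0.

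For 4 members the array held a second probe. Irgm1's second probe gave differences close to those of the first, 3.88 in acute against untreated, -2.07 in tolerant against acute and 1.80 in recovered against tolerant cells. Iigp1's second probe was well above background on 0 of 3 untreated arrays, so its rise had only a lower bound, the bright group's mean against the lowest signal called well above background on each untreated array. By that bound Iigp1 was at least 413-fold higher in recovered, 48.8-fold higher in tolerant and 229-fold higher in acute than in untreated cells. The first Iigp1 probe gave 34.9-fold, 4.69-fold and 19.6-fold in the same comparisons. Between LPS groups both Iigp1 probes gave similar values, with -2.23 ± 0.33 for tolerant against acute, 3.08 ± 0.33 for recovered against tolerant and 0.85 ± 0.33 for recovered against acute cells on the second (limma adjusted p of 0.000823, 0.000194 and 0.259). The first Iigp1 probe, at chr18:60551352-60551411 in mm9, shares stretches of 16 bases with the promoter entries of 9 other genes, against 0 or 1 for the probes of the other members, and the second differs at 5 of 60 bases from the array's probe for Iigp1b, a related gene. Neither was tested as a source of signal.

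The second probe of Gbp5, which carries another accession, gave smaller differences. In untreated cells it averaged 8.99 against 6.87 for the first probe, and in acute cells 11.40 against 15.81. The first was thus the brighter probe only on LPS arrays, and the second is meant below. It was 2.16 ± 0.48 in recovered, 0.79 ± 0.48 in tolerant and 2.41 ± 0.48 in acute against untreated cells (limma, adjusted p of 0.00484, 0.31 and 0.00283). In tolerant against acute cells it fell by 1.62 on the log2 scale (limma, adjusted p of 0.034), against -1.66 on the first probe. In recovered, against tolerant cells it had 1.37 ± 0.48 and was not called (limma, adjusted p of 0.0681). The second probe named Gbp6 also carries another accession. It was well above background on 3 recovered arrays, 0 tolerant arrays, 1 acute array and 0 untreated arrays, so the size of its differences could not be measured.

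**Figure D3:**
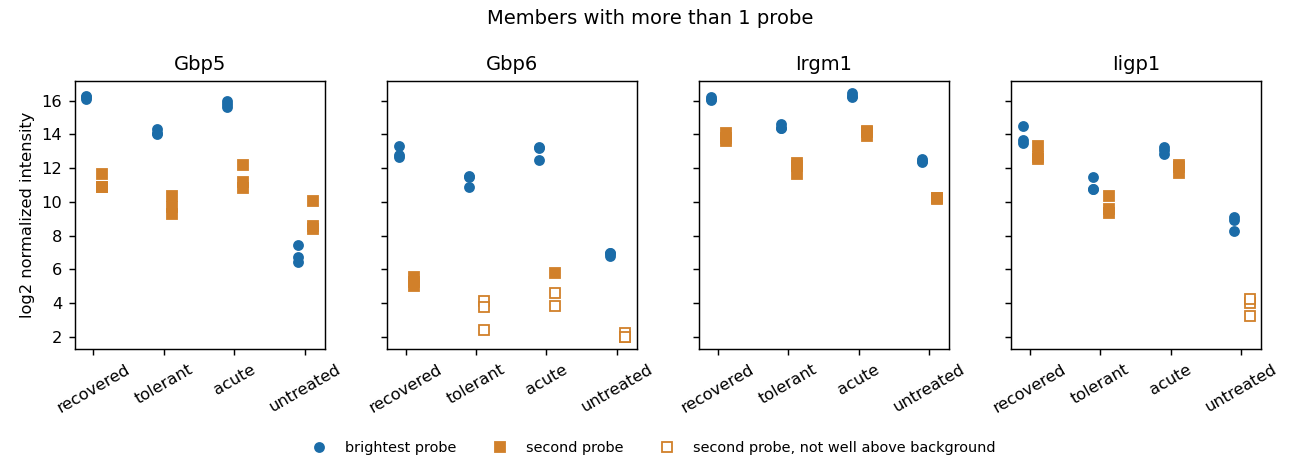
Log2 normalised intensity (vertical axis) of both probes of Gbp5, Gbp6, Irgm1 and Iigp1 on each array of the recovered, tolerant, acute and untreated groups; open squares are values not well above background. The second Iigp1 probe is not well above background on any untreated array, while the first lies between 8.28 and 9.10 there.

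Other genes of both families were taken from a list. The array held 13 under the names searched, 11 of which were tested. Gbp1 of the array annotation (Gbp2b in RefSeq) and Irgc1, which is known from testis, were not well above background on all 3 arrays of any group. Of the 11, 10 rose in recovered, 9 in tolerant and 10 in acute against untreated cells (limma), beside 18.5%, 11.3% and 14.3% of all genes. Gbp4, counted in each, was tested only because its LPS arrays were well above background. Between tolerant and acute cells 9 fell, beside 10.6% of all genes. In recovered against tolerant cells 9 rose, beside 11% of all genes, and 0 were called in recovered against acute cells, beside 2.04%. Their median log2 difference between tolerant and acute cells was -1.77, beside -1.79 for the members. The counts of the 11 are from the fit without a block. With the replicate block 18.8% of all genes rose in tolerant against untreated cells, and 22.9% fell in tolerant against acute cells. In recovered cells 25.2% of all genes rose against tolerant cells, and 5.99% rose and 4.75% fell against acute cells with the block.

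Gbp4 was well above background on 0 of 3 untreated arrays. It was at least 184-fold higher in recovered, 51.0-fold higher in tolerant and 285-fold higher in acute than in untreated cells, and fell by 2.48 ± 0.54 on the log2 scale in tolerant against acute cells (limma, adjusted p of 0.00709). Gbp10 fell by 1.39 ± 0.20 in the same comparison (limma, adjusted p of 0.000806). Gbp11 had a difference of -1.77 ± 0.70 that was not called (limma, adjusted p of 0.0921), with untreated arrays that spread from 5.39 to 8.67. Gbp8 was the only tested family gene with no call in any of the 6 comparisons. It was well above background on 0 of 3 recovered, 2 of 3 tolerant, 3 of 3 acute and 3 of 3 untreated arrays and averaged 3.29 in recovered, 4.54 in tolerant and 5.50 in acute cells, against 5.46 in untreated cells.

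All 6 tested immunity-related GTPases outside the members rose against untreated cells in each LPS group. Ifi47 (Irgd) had 16.62, 16.39 and 16.36 in recovered cells, 14.77, 14.51 and 14.45 in tolerant cells and 16.61, 16.44 and 16.22 in acute cells, against 12.17, 11.74 and 11.58 in untreated cells. Its recovered and acute arrays overlapped and its tolerant arrays lay below both. In tolerant against acute cells the log2 difference was -2.01 ± 0.20 for Gm12250 (Irgb10, which opens the membranes of bacteria), -1.85 ± 0.18 for Ifi47, -1.77 ± 0.23 for Gm4951 and -1.08 ± 0.20 for Gm5431. Tgtp1 and Tgtp2 (Irgb6), which are nearly identical copies whose probes may share RNA, had -1.88 ± 0.25 and -1.57 ± 0.19. Gvin1, a very large inducible GTPase, had -1.60 ± 0.27. All 7 were called lower (limma, adjusted p of 9.21e-05 to 0.00285).

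The pathway upstream of the members was described with 21 genes, of which 20 were tested. In tolerant against acute cells 9 of 20 fell and 3 rose (limma), beside 10.6% and 12% of all genes. In recovered against tolerant cells 9 rose and 2 fell, beside 11% and 9.57% of all genes. In recovered against acute cells 3 rose and 1 fell, beside 1.46% and 0.581% of all genes. Against untreated cells 15 rose and 0 fell in recovered, 13 rose and 0 fell in tolerant, and 13 rose and 2 fell in acute cells, where 15% of all genes fell. Ifng, counted among the genes that rose in each comparison of recovered cells, was tested only because its recovered arrays were well above background. Ifnb1, counted among those that rose against untreated cells in each LPS group, was tested only because its LPS arrays were well above background. The median over the pathway genes in tolerant against acute cells was -0.45. The counts of pathway genes are from the fit without a block. With the replicate block 18.8% of all genes rose in tolerant against untreated cells, and 22.9% fell in tolerant against acute cells. In recovered cells 25.2% of all genes rose against tolerant cells, and 5.99% rose and 4.75% fell against acute cells with the block.

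Among the ligands, Ifnb1 (interferon beta) had 13.22, 11.87 and 11.41 in recovered cells, 9.76, 8.72 and 7.90 in tolerant cells and 14.68, 14.46 and 12.50 in acute cells, and was well above background on 0 of 3 untreated arrays. It was at least 316-fold higher in recovered, 30.5-fold higher in tolerant and 1036-fold higher in acute than in untreated cells. In tolerant against acute cells it fell by 5.08 ± 0.63 on the log2 scale (limma, adjusted p of 0.000304), and in recovered against tolerant cells it rose by 3.37 ± 0.63 (limma, adjusted p of 0.00421). The recovered arrays had a lower mean than the acute arrays, by -1.71 ± 0.63, which was not called (limma, adjusted p of 0.235) and overlapped. Ifna4, an interferon alpha, was well above background on 0 of 12 arrays.

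Ifng (interferon gamma), which in most tissues comes from T and NK cells, was well above background on 3 of 3 recovered arrays, 0 of 3 tolerant, 1 of 3 acute and 0 of 3 untreated arrays. Its recovered values were 7.88, 7.30 and 6.11. It was at least 7.11-fold higher in recovered than in tolerant cells and at least 9.41-fold higher than in untreated cells. It was called higher in recovered than in acute cells (limma, adjusted p of 0.0389), where the size is uncertain since only 1 acute array was above background. Ifng was among the genes tested only because its recovered arrays were well above background. Its calls in recovered cells are therefore a description and no support for a difference. Of 13 markers of T and NK cells, 4 (Cd3e, Cd4, Prf1 and Nkg7) were well above background on all 12 arrays, and Cd3g, Cd8a and Eomes on none. Cd3d, part of the T cell receptor complex, was well above background on 2 of 3 recovered arrays and on 0 of the other 9, with levels of 5.29, 4.99 and 4.30 in recovered, 3.35, 4.73 and 3.71 in tolerant and 2.49, 3.04 and 2.47 in acute cells, against 2.00, 3.75 and 2.81 in untreated cells. Like Ifng, its recovered arrays lay above all acute and untreated arrays, and it was not among the 5 markers tested. Other markers near background differed in direction. Klrb1c averaged 2.46 in recovered, 3.45 in acute and 3.65 in untreated cells, and Ncr1 3.22, 4.09 and 3.83. Cd3g averaged 2.98, 1.95 and 1.74 in the same groups. The mean log2 level over the 13 was 5.71 to 5.97 on recovered, 5.09 to 5.63 on tolerant, 5.52 to 5.74 on acute and 5.13 to 5.46 on untreated arrays. Prf1 rose by 0.50 ± 0.14 in recovered against tolerant cells (limma, adjusted p of 0.0251), and none of the 5 tested was called in recovered against acute cells. The part of such cells in the Ifng signal was not tested.

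Of the 4 receptors, 3 rose in tolerant against acute cells, where the members fell. Ifnar1 rose by 1.35 ± 0.21, Ifngr2 by 1.13 ± 0.17 and Ifnar2 by 0.50 ± 0.12 on the log2 scale (limma, adjusted p of 0.00116, 0.001 and 0.0122), while Ifngr1 had 0.15 ± 0.22 and was not called. In acute against untreated cells Ifnar1 fell by 0.88 ± 0.21 and Ifngr2 by 0.70 ± 0.17 (limma, adjusted p of 0.00802 and 0.00916). Ifnar2 rose in recovered and tolerant against untreated cells, by 0.86 ± 0.12 and 0.79 ± 0.12 (limma, adjusted p of 0.000194 and 0.000803). It also rose by 0.57 ± 0.12 in recovered against acute cells (limma, adjusted p of 0.0411). In recovered against tolerant cells, where the members rose, Ifnar1 fell by 0.85 ± 0.21 and Ifngr2 by 0.85 ± 0.17 (limma, adjusted p of 0.017 and 0.00602). None of the kinases Jak1, Jak2 and Tyk2 was called between LPS groups, and Jak2 rose by 2.94 ± 0.21 in acute against untreated cells (limma, adjusted p of 1.14e-06).

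Of 7 transcription factors, 5 fell in tolerant against acute cells. Irf1, an interferon-induced activator of many GTPase genes, had 16.65, 16.76 and 16.58 in recovered cells, 14.73, 14.45 and 14.57 in tolerant cells and 16.70, 16.93 and 16.52 in acute cells, against 12.52, 12.56 and 12.48 in untreated cells. This was the order of groups seen for the members, and the log2 difference of Irf1 between tolerant and acute cells was -2.13 ± 0.14 (limma, adjusted p of 1.35e-05). Irf8, which is also constitutive in macrophages, fell by 2.22 ± 0.19 in tolerant against acute cells and by 1.43 ± 0.19 in recovered against acute cells (limma, adjusted p of 4.74e-05 and 0.0101). Irf2 fell by 1.69 ± 0.30, Stat2 by 0.83 ± 0.14 and Irf9 by 0.50 ± 0.16 in tolerant against acute cells (limma, adjusted p of 0.00261, 0.00148 and 0.041).

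Irf7, a regulator of interferon genes that is itself induced by interferon, had a difference of 0.28 ± 0.24 between tolerant and acute cells that was not called (limma, adjusted p of 0.434), although it rose by 4.49 ± 0.24 in tolerant against untreated cells (limma, adjusted p of 3.2e-07). Irf3, present before induction, was called in none of the 6 comparisons. The inhibitors of the pathway were split. Socs1 fell by 1.98 ± 0.43, Usp18 by 1.79 ± 0.26 and Ptpn2 by 1.00 ± 0.24 in tolerant against acute cells (limma, adjusted p of 0.00757, 0.000776 and 0.0114). Socs3, which acts mainly on receptors of the interleukin 6 type, had 0.37 ± 0.13 there (limma, adjusted p of 0.0701) and rose by 0.73 ± 0.13 in recovered against acute cells (limma, adjusted p of 0.0296).

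**Figure D4:**
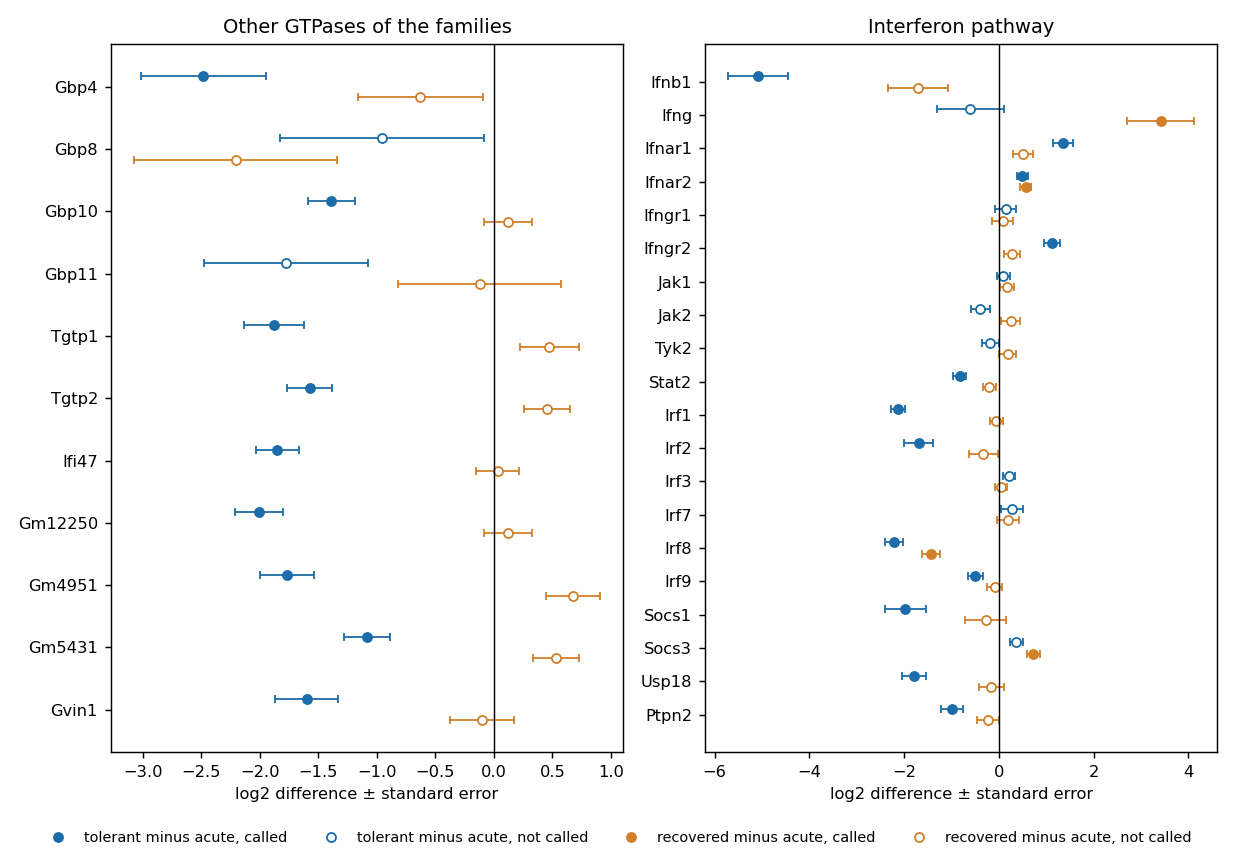
Log2 difference ± SE (horizontal axes) of 11 other GTPases of both families (left) and 20 genes of the interferon pathway (right) in tolerant against acute and in recovered against acute cells, 3 arrays a group; filled points were called by limma. Of the left panel 9 genes fell in tolerant cells and none was called in recovered cells, and in the right panel Ifnb1 lies farthest to the left and Ifng farthest to the right.

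Genes that work with the members in attack on vacuoles, in cell-autonomous defence and in pyroptosis formed a list of 15, all tested. Of these 4 fell and 0 rose in tolerant against acute cells, beside 10.6% and 12% of all genes, in the fit without a block. With the replicate block 22.9% of all genes were called lower, and a count of the 15 in that fit is not given here. The 4 were Aim2 (a sensor of DNA) with -2.06 ± 0.30, Nos2 (which makes nitric oxide) with -1.41 ± 0.33, Il18 with -1.09 ± 0.22 and Casp4 (mouse caspase-11, which binds LPS in the cytosol) with -0.78 ± 0.15 (limma, adjusted p of 0.000787, 0.0107, 0.00445 and 0.00431). The median over the 15 was -0.24. Gsdmd, the pore-forming target of caspase-11, and Cybb, the catalytic subunit of the NADPH oxidase, rose against untreated cells in each LPS group and were not called between LPS groups.

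Nlrp3 rose by 1.42 ± 0.23 in recovered against acute cells (limma, adjusted p of 0.0204) and was the 1 gene of 15 called there. Of all genes 1.46% were called higher and 0.581% lower in that comparison, or 5.99% and 4.75% with the replicate block. The count of 1 is from the fit without the block. Of the autophagy genes, which place GTPases on vacuoles, Atg7 and Map1lc3b fell in acute against untreated cells, by 0.64 ± 0.16 and 0.59 ± 0.13, and in recovered against untreated cells, by 0.83 ± 0.16 and 0.59 ± 0.13 (limma, adjusted p of 0.00935, 0.00595, 0.00176 and 0.00523). Sqstm1, an autophagy receptor, and Atg16l1 rose in recovered against untreated cells, by 0.89 ± 0.27 and 1.18 ± 0.32 (limma, adjusted p of 0.0238 and 0.0142). Atg3, Atg5 and Gabarapl2 were called in none of the 6 comparisons.

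Outside these lists, the 6 genes whose levels over the 12 arrays were most like the mean of the members were Rsad2 (viperin, an antiviral enzyme) with a Pearson correlation of 0.999, Cmpk2 (a mitochondrial nucleotide kinase), Gm4902 (Phf11b in RefSeq) and Hdc (which makes histamine) with 0.998, and Gm5598 and Xkr8 (a lipid scramblase) with 0.997. Their log2 differences between tolerant and acute cells ran from -2.96 for Cmpk2 to -1.01 for Xkr8. Those between recovered and acute cells ran from -0.10 for Cmpk2 to 0.27 for Hdc. The arrays fall into separate groups, so these correlations describe a shared order of groups and carry no p-value.

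As a check of the cell type, 9 of 9 macrophage markers were well above background on all 12 arrays, with a mean log2 level of 15.79 to 16.07 on recovered, 15.45 to 15.52 on tolerant, 15.69 to 15.83 on acute and 15.18 to 15.40 on untreated arrays. In tolerant against acute cells Csf1r rose by 0.53 ± 0.13 and Mertk had -1.66 ± 0.50 (limma, adjusted p of 0.0161 and 0.0339), and the other 7 were not called. Of 6 dendritic cell markers Zbtb46, Siglech and Itgax were well above background on all arrays and Xcr1 and Clec9a on none. The mean over the 6 was 7.95 to 8.09 on recovered, 7.49 to 7.92 on tolerant, 7.95 to 8.17 on acute and 6.72 to 7.26 on untreated arrays. Zbtb46 moved with the members, with a log2 difference of -1.16 ± 0.32 in tolerant against acute and 5.31 ± 0.32 in acute against untreated cells (limma, adjusted p of 0.0224 and 3.07e-07). Of 6 neutrophil markers 3 were well above background on all arrays, and S100a8 and Camp rose by 1.82 ± 0.33 and 1.39 ± 0.26 in tolerant against acute cells (limma, adjusted p of 0.00292 and 0.0035), while S100a9 and Ngp were well above background on no array. The mean over the 6 was 6.43 to 6.80 on recovered, 6.37 to 7.10 on tolerant, 6.08 to 6.65 on acute and 5.78 to 6.20 on untreated arrays. Of 4 B cell markers Cd79b alone was well above background on all arrays, and it fell by 3.86 ± 0.65 in recovered against untreated and by 2.41 ± 0.65 in recovered against tolerant cells, where the members rose (limma, adjusted p of 0.000717 and 0.0234). The mean over the 4 was 3.78 to 4.36 on recovered, 4.17 to 4.73 on tolerant, 4.49 to 5.27 on acute and 4.89 to 4.91 on untreated arrays, and Ms4a1 was well above background on none. Of 5 fibroblast markers 2 were tested and neither was called, and Col1a1 and Pdgfra were well above background on no array. The mean over the 5 was 3.91 to 4.54 on recovered, 3.95 to 4.22 on tolerant, 3.71 to 4.84 on acute and 3.28 to 3.77 on untreated arrays. The part of other cells in the members' differences was not tested.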

How the data were processed

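RNA of 12 macrophage cultures was hybridised to single-colour Agilent mouse arrays. Per the file headers, the deposited intensity values were made by the authors with Feature Extraction 10.7.3.1, which subtracts background, and probe positions are in mm9. A deposited table of log2 values was used as an alternative only. The submitters' processing notes name limma, and how that table was normalised is not given in the sources used here.

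Spots of a probe were averaged over 59305 of 62976 spots, without control spots and outlier flags (135 to 233 per array). Each array's log2 intensity was set to a common 75th percentile (8.04 to 9.38 before). Of 55681 probes, 28105 were well above background on each array of some group, and 28056 of these had a value on all 12 arrays after outlier flags. The probe with the highest mean log2 signal stood for each of 20491 genes. A model of the 4 groups without a block was fitted with limma 3.58.1 in R 4.3.3 and tested on simulated data first. Calls used a Benjamini-Hochberg adjusted p under 0.05 over all genes. With 3 arrays a group the number of arrays limits the precision, and p-values measure the spread between these arrays.

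Same-numbered arrays deviated together. The correlations of their residuals were 0.276 to 0.773 over 18 pairs, and the design text speaks of independent experiments. The median was -0.368 over 36 pairs with different numbers. Residuals of a group sum to 0, so this negative median follows in part from the positive values and is no separate contrast. Number and slide coincided on all arrays but recovered replicate 1, so an experiment and a slide cannot be told apart here. The SEs, intervals and p-values of the Results come from the fit without a block, which leaves this pairing out. The fit with the replicate number as a block is given where it moved a count by over 1.5 times.

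Quantile normalisation moved the median of all genes by over 0.1, to -0.12 in acute against untreated cells and to -0.08 in recovered against untreated cells. Named genes were all members, the genes of fixed lists, and the 6 genes most correlated with the members' mean. A gene of the pathway list is not reported here. Members and lists were chosen with earlier results of these data known. Alternatives were other background correction, normalisation, filters, blocks, probes and left-out arrays.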

Additional observations from a re-analysis of the deposited data

How the results depend on the processing

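No result of a member that was called reversed under any of its 24 to 25 alternatives. Of differences between recovered and acute cells, none called, the sign changed under 1 alternative for Gbp5, 8 for Gbp6, 3 for Igtp and 4 for Irgm2. With the replicate block, members called stayed at 9 of 9 in the 5 comparisons called and at 0 of 9 in recovered against acute cells, where Iigp1 had a limma adjusted p of 0.1. Over all genes the replicate block gave 7688 calls in tolerant against untreated cells and, between LPS groups, 9116 (tolerant against acute), 9233 (recovered against tolerant) and 2202 (recovered against acute), where the fit without it gave 4075, 4639, 4210 and 419. With slide as a block the counts were 9318 in acute against untreated (5995 without it), 8085 in tolerant against untreated and, for the same 3 pairs of LPS groups, 9620, 8235 and 1602. With no filter on dim probes recovered against acute cells had 99 calls.

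On the authors' deposited values 4 of 9 members were called in tolerant against untreated, 2 in tolerant against acute and 2 in recovered against tolerant cells. Without untreated replicate 3, a choice made after seeing the data, those counts were 8, 9 and 9. Over all genes the authors' values gave 11156 calls in recovered, 7100 in tolerant and 9317 in acute against untreated cells. Between LPS groups they gave 7681 (tolerant against acute), 7406 (recovered against tolerant) and 1203 (recovered against acute). Without untreated replicate 3 they gave 6347 in tolerant against untreated cells and, for the same 3 pairs of LPS groups, 8220, 8044 and 1630. The cause was not tested.

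Leaving out arrays, members called stayed at 9 of 9 in 4 comparisons, were 7 to 9 in tolerant against acute cells and stayed at 0 in recovered against acute cells. With the second probe of the 4 members that have one, chosen after seeing the data, 7 were called in tolerant against untreated, 8 in tolerant against acute and 8 in recovered against tolerant cells. These counts include the second probe named Gbp6, whose differences could not be measured and which was tested only because of its recovered arrays. It was the call lost in tolerant against acute cells. Without replicate 2 of every group Gbp5 (-1.60, limma adjusted p of 0.0605) and Iigp1 (-2.05, adjusted p of 0.055) were not called in tolerant against acute cells. Over all genes, leaving out 1 array gave 5866 to 7544 calls in recovered, 2913 to 4317 in tolerant and 5013 to 6012 in acute against untreated cells. Between LPS groups it gave 3125 to 4821 (tolerant against acute), 2580 to 4510 (recovered against tolerant) and 25 to 447 (recovered against acute). Leaving out 1 replicate number from every group gave 4004 to 7532, 1215 to 4559, 2997 to 6185, 800 to 5270, 719 to 3882 and 0 to 580 for the same 6 comparisons in that order, and without replicate 1 of every group the counts were 4268, 2037, 3619, 1830, 1124 and 0. Fewer arrays were then in the fit. Quantile normalisation gave 3486 higher and 5250 lower in recovered against untreated (3787 and 3465 in the report's fit), 2164 and 2594 in tolerant against untreated (2306 and 1769) and 201 and 130 in recovered against acute cells (300 and 119). The order of the members by level was not run, since levels of different probes cannot be compared.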

Other observations

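The authors' deposited table of log2 values lists untreated replicate 3 at its lowest value, 2.58, for Gbp2, Gbp3, Gbp5, Gbp6 and Iigp1, as it does for 169 genes in all. For Gbp2 the authors' deposited table gives 12.9, 13.4 and 2.58 in the 3 untreated arrays, where the scanner signal gave 9.84, 10.03 and 9.68. For Gbp5 the authors' deposited table gives 12.6, 13.1 and 2.58 there. With the medians removed, the members in the authors' deposited table stood a median of 1.65, 1.49 and -4.65 from the scanner-based values in untreated replicates 1, 2 and 3, and -0.37 to 0.23 on the other 9 arrays. The cause was not tested.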
